A study of Mus musculus with 2 samples.

Results

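Type I interferon-stimulated genes are a set of genes that cells switch on after sensing interferon alpha or beta. The set described here held 38 mouse genes, chosen by name as a list, of 31053 genes in the count tables. Matched by gene symbol, 37 of the 38 were found. Mx2 had no row under that symbol and has no value here. Raw counts of unique molecular identifiers (UMIs, one per captured transcript molecule) were read for each gene in every cell type of 2 single-cell RNA-seq libraries, to see which genes of the set were present in all cell types and which were tied to one lineage.

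Both libraries came from subcutaneously implanted syngeneic fibrosarcomas in wild-type C57BL/6 mice, and the study asked what injecting autologous erythrocytes in saline does to the tumours' cells. One library is titled Blood and one is titled Control, with 1 library per group. The treatment labels contradict these titles: the library titled Blood carries the label PBS injected and the library titled Control carries the label Erythrocyte injected. The libraries are therefore called by their titles throughout, and no direction is read as an effect of erythrocytes. The age and sex of the mice, the tumour line and the number of animals pooled behind each library are not stated in the labels. With 1 library per group there was no replicate check and no test of the conditions, and the intervals printed below are exact 95% intervals that cover counting error only.

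Interferons alpha and beta bind the receptor pair Ifnar1 and Ifnar2, and the kinases Jak1 and Tyk2 then pass the signal on by phosphorylation. Stat2, acting with Irf9, is carried into the nucleus to bind the interferon-stimulated response element (ISRE) in promoters. The genes switched on block viral RNA, translation and budding, sense further nucleic acid, or restrain the signal, and in tumours they are widely used as a readout of interferon exposure of myeloid and lymphoid cells.

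Barcodes numbered 12057 titled Blood, with 115066023 UMIs, and 9475 titled Control, with 115272096 UMIs. After the cell filter and removal of called doublets 11341 cells titled Blood, with a median of 6577 UMIs, and 8823 cells titled Control, with a median of 9245 UMIs, were kept. The doublet caller marked 2.38% of cells titled Blood and 1.80% titled Control, where 9.65% titled Blood and 7.58% titled Control were expected, so doublets remain. Of the barcodes, 349 occurred in both libraries. Clusters were named from marker genes, without the interferon genes among the clustering genes, and 6 classes had at least 100 cells in both libraries. These were macrophage-like (4931 cells titled Blood and 4625 titled Control), monocyte-like (260 titled Blood and 235 titled Control), conventional dendritic cell-like, written DC-like (221 titled Blood and 251 titled Control), neutrophil-like (1773 titled Blood and 129 titled Control), T cell-like (1510 titled Blood and 1186 titled Control) and NK cell-like cells (385 titled Blood and 367 titled Control). In each of these classes all markers of its own list were detected in at least 5% of cells in both libraries. A cluster with monocyte markers and 24.4% titled Blood or 37.6% titled Control of the macrophage-like level of the complement genes C1qa, C1qb and C1qc was kept apart as mixed monocyte-macrophage cells (929 cells titled Blood and 1160 titled Control). C1q in classes that should lack it gauged free RNA. In T cell-like cells it was at 1.71% titled Blood and 2.19% titled Control of the macrophage-like level, and in NK cell-like cells at 2.03% titled Blood and 1.68% titled Control. In neutrophil-like cells it was at 3.75% titled Blood and 3.37% titled Control. Smaller classes described below had more. Mesenchymal-like cells were at 7.19% titled Blood and 4.54% titled Control, and B cell-like cells at 18.9% titled Blood and 31.5% titled Control.

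Many of these promoters held the core letters of the site that the interferon pathway binds. Of the 38 genes 29 were in the RefSeq promoter table (GRCm38.p6, 250 bases before to 50 after each annotated start), and 17 of the 29 (58.6%) held the ISRE core GAAA NN GAAA, a pair of GAAA units parted by 2 bases of any kind, on either strand. Among all 27025 genes of that table the share was 3.99%, and 3.44% of its 32851 promoters held the core. Mx1, Mx2, Oas2, Usp18, Ifi204, Ifi27l2a, Zbp1, Rtp4 and Parp14 were not among the promoters. The windows below show 20 bases on each side of 1 match or of neighbouring matches, read 5′ to 3′ in the direction of the gene, with the ISRE core or its reverse complement in capitals. They are shown because these genes stand for the patterns described next: the ISG15 modifier, the IFIT family, the neutrophil-led Rsad2, the macrophage-led Bst2, the dendritic cell-led Ifi205 and the broadly present Slfn8.

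Isg15, chr4:156200855-156200916, minus strand: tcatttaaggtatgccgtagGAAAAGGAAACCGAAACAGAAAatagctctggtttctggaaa
Ifit1, chr19:34640765-34640833, plus strand: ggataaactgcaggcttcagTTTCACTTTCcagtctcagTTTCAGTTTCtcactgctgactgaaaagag
Ifit3, chr19:34583387-34583436, plus strand: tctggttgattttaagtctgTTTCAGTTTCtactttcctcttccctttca
Ifit3b, chr19:34607783-34607832, plus strand: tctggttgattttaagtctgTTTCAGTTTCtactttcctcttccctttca
Rsad2, chr12:26456543-26456592, minus strand: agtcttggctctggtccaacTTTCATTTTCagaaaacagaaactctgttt
Bst2, chr8:71537567-71537622, minus strand: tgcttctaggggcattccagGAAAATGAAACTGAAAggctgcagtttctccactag
Ifi205, chr1:174031860-174031909, minus strand: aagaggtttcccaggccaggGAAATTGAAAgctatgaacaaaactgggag
Slfn8, chr11:83020829-83020878, minus strand: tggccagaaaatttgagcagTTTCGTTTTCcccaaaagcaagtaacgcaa

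In Isg15 the capitals join 3 overlapping matches, and in Bst2 they join 2. Ifit1 carried 2 separate matches, both in its window, the first at -104 from the start. Ifit3, Ifit3b and Ifi205 each carried a second match outside the window shown, at -156 from the start of Ifit3, -188 from that of Ifit3b and 23 from that of Ifi205. For Slfn8 a match also lay at -136 from another of its annotated starts. Ifit3 and Ifit3b, neighbours on chromosome 19, had the same letters in this window, with its first base at -142 from the start of Ifit3 and at -174 from that of Ifit3b, although the last 300 bases of their longest transcripts, where 3′ counting reads, were 48.3% identical in a global alignment. In macrophage-like cells the median log2 ratio of the library titled Blood over the library titled Control (5 CPM added to both levels) was -0.57 over the 17 genes with a match and -0.63 over the 12 without. Of the 6 genes called present in all classes below, 3 held the core, 2 did not and Parp14 was not in the table. A match is a description of these letters and not a site shown to be bound.

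**Figure D1:**
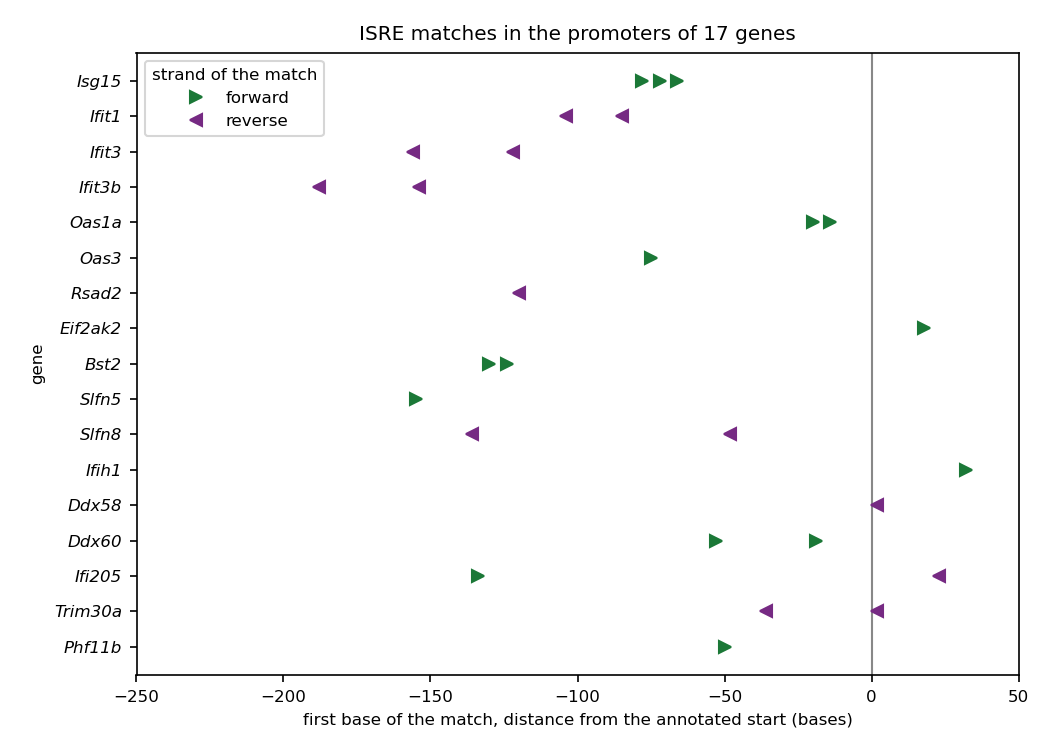
Position of each ISRE core match, in bases from an annotated start, for the 17 genes that hold one; arrowheads show the strand of the match relative to the gene. Slfn8 and Trim30a have 2 marks each, counted from different annotated starts, with at most 1 match in any 1 promoter. Matches of Isg15, Ifit1, Ifit3, Rsad2 and Bst2 lie upstream of the start, and those of Ifih1 and Eif2ak2 downstream of it.

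Levels in the 6 classes were compared gene by gene as CPM, the UMIs of a gene scaled to the total of its class. CPM is thus a share of a class's UMIs and not a count per cell, and the classes differed in depth. The median was 1747 UMIs per cell titled Blood and 1962 titled Control in neutrophil-like cells. In macrophage-like cells it was 13459 titled Blood and 14968 titled Control. A gene was called present in all classes when, in both libraries, it had at least 10 CPM in each of the 6 classes, its highest class was at most 4 times its lowest, and its level lay above what free RNA from macrophages could give. Of the 37 genes 6 met this: Ifi35, Xaf1, Ddx58, Parp14, Slfn8 and Eif2ak2. All 6 classes are of immune cells. With classes of at least 50 cells, which adds the non-immune mesenchymal-like cells, Ifi35 alone met the rule. In mesenchymal-like cells Slfn8 was at 9.97 CPM titled Blood and 15.3 CPM titled Control. The first 2 conditions alone were met by 16.2% of the set and by 28.8% of all 9160 genes measured, so even levels across classes were not more common in the set than among genes at large.

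Ifi35 (chr11:101448407-101458698, plus strand), an interferon-induced leucine zipper protein, had the narrowest range over classes of the set in both libraries. Titled Blood, Ifi35 was at 47.97 CPM in macrophage-like, 124 in monocyte-like, 107 in conventional DC-like, 72.7 in neutrophil-like, 78.1 in T cell-like and 51.1 in NK cell-like cells. Titled Control, Ifi35 was at 72.4 CPM in macrophage-like, 149 in monocyte-like, 146 in conventional DC-like, 92.4 in neutrophil-like, 99.4 in T cell-like and 74.7 in NK cell-like cells. The highest class exceeded the lowest 2.58 times titled Blood and 2.06 times titled Control. Monocyte-like cells were at the top and macrophage-like cells at the bottom in both libraries, and Ifi35 met the rule in all 15 alternative settings.

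Ddx58 (chr4:40203773-40239828, minus strand) encodes RIG-I, the sensor of short viral RNA. Titled Blood, Ddx58 was at 30.8 CPM in macrophage-like, 64.2 in monocyte-like, 42.1 in conventional DC-like, 87.05 in neutrophil-like, 56.1 in T cell-like and 58.6 in NK cell-like cells. Titled Control, Ddx58 was at 46.8 CPM in macrophage-like, 84.9 in monocyte-like, 46.9 in conventional DC-like, 135 in neutrophil-like, 87.7 in T cell-like and 82.3 in NK cell-like cells. Neutrophil-like cells were highest and macrophage-like cells lowest in both libraries, 2.83 times titled Blood and 2.88 times titled Control apart. Eif2ak2 (chr17:78852564-78882573, minus strand) encodes PKR, the kinase that stops translation on meeting double-stranded RNA. Titled Blood, Eif2ak2 was at 50.6 CPM in macrophage-like, 105 in monocyte-like, 56.1 in conventional DC-like, 37.8 in neutrophil-like, 35.3 in T cell-like and 28.6 in NK cell-like cells. Titled Control, Eif2ak2 was at 61.1 CPM in macrophage-like, 103 in monocyte-like, 73.4 in conventional DC-like, 65.4 in neutrophil-like, 42.8 in T cell-like and 39.1 in NK cell-like cells. Its highest class, monocyte-like, exceeded NK cell-like cells 3.66 times titled Blood and 2.63 times titled Control.

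Xaf1 (chr11:72301629-72313733, plus strand), a promoter of cell death, Parp14 (chr16:35832874-35871544, minus strand), an ADP-ribosyl transferase, and Slfn8 (chr11:83002158-83020810, minus strand), a Schlafen family gene, completed the 6. Titled Blood, Xaf1 was at 37.7 CPM in macrophage-like, 112 in monocyte-like, 69.4 in conventional DC-like, 124 in neutrophil-like, 65.5 in T cell-like and 37.5 in NK cell-like cells. Titled Control, Xaf1 was at 60.2 CPM in macrophage-like, 148 in monocyte-like, 99.5 in conventional DC-like, 177 in neutrophil-like, 90.4 in T cell-like and 54.7 in NK cell-like cells. NK cell-like cells were lowest. Titled Blood, Parp14 was at 68.4 CPM in macrophage-like, 202 in monocyte-like, 93.7 in conventional DC-like, 156 in neutrophil-like, 88.8 in T cell-like and 63.3 in NK cell-like cells. Titled Control, Parp14 was at 89.6 CPM in macrophage-like, 258 in monocyte-like, 141 in conventional DC-like, 316 in neutrophil-like, 122 in T cell-like and 82.3 in NK cell-like cells. NK cell-like cells were lowest again, while the top class was monocyte-like titled Blood and neutrophil-like titled Control. Titled Blood, Slfn8 was at 29.9 CPM in macrophage-like, 95.96 in monocyte-like, 33.4 in conventional DC-like, 89.5 in neutrophil-like, 70.2 in T cell-like and 54.9 in NK cell-like cells. Titled Control, Slfn8 was at 38.5 CPM in macrophage-like, 118 in monocyte-like, 44.7 in conventional DC-like, 108 in neutrophil-like, 97.9 in T cell-like and 70.7 in NK cell-like cells. Macrophage-like cells were lowest and monocyte-like cells highest in both libraries. Xaf1, Parp14 and Slfn8 met the rule in 10 of 15 alternative settings each, against 14 for Ddx58 and 13 for Eif2ak2.

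In all 6 genes were bound to a lineage. A gene was bound to 1 class when that class was at least 4 times every other class in both libraries, and to a compartment when each of its classes was at least 2 times every class outside it. Ifit3b, Rsad2 and Ddx60 were bound to neutrophil-like cells, which is 8.11% of the set against 5.28% of all measured genes for binding to any class. Oasl2, Oas2 and Ifi204 were bound to the myeloid compartment of macrophage-, monocyte-, conventional DC- and neutrophil-like cells, again 8.11% of the set, against 3.92% of all measured genes. These calls compare the 6 classes and leave out the mixed monocyte-macrophage cells. Counting those as a class, an alternative added after seeing the data, left 5 of the 6 genes bound, without Rsad2. With classes of at least 50 cells Ifit3b, Rsad2 and Ddx60 stayed bound, and the 3 myeloid calls did not hold. That setting also compared mesenchymal-, migratory DC- and osteoclast-like cells, as classes outside the myeloid compartment. Mesenchymal-like cells held Oasl2 at 36.9 CPM titled Blood and 57.8 CPM titled Control. The other 25 genes were graded between classes.

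Rsad2 (chr12:26442746-26456452, minus strand) encodes viperin, which makes a nucleotide that stops viral polymerases. Titled Blood, Rsad2 was at 50.5 CPM in macrophage-like, 118 in monocyte-like, 39.1 in conventional DC-like, 959 in neutrophil-like, 21.1 in T cell-like and 24.9 in NK cell-like cells. Titled Control, Rsad2 was at 101 CPM in macrophage-like, 322 in monocyte-like, 102 in conventional DC-like, 2025 in neutrophil-like, 78.5 in T cell-like and 44.5 in NK cell-like cells. The neutrophil-like level was 959 CPM (926 to 994) titled Blood and 2025 CPM (1856 to 2206) titled Control, and exceeded the second of the 6 classes 8.14 times titled Blood and 6.29 times titled Control. In the mixed monocyte-macrophage cells Rsad2 was at 297 CPM titled Blood and 576 CPM titled Control, which the neutrophil-like level exceeded 3.23 times titled Blood and 3.52 times titled Control. Ifit3b (chr19:34607970-34613401, plus strand) is an IFIT gene, a family that binds viral RNA and hinders its translation. Titled Blood, Ifit3b was at 5.56 CPM in macrophage-like, 9.32 in monocyte-like, 4.93 in conventional DC-like, 79.9 in neutrophil-like, 12.4 in T cell-like and 2.81 in NK cell-like cells. Titled Control, Ifit3b was at 12.9 CPM in macrophage-like, 23.3 in monocyte-like, 16.4 in conventional DC-like, 227 in neutrophil-like, 24.2 in T cell-like and 2.22 in NK cell-like cells. Its neutrophil-like level exceeded the second of the 6 classes 6.42 times titled Blood and 9.39 times titled Control, and the mixed cells 4.84 times titled Blood and 4.34 times titled Control. Its neighbour Ifit3 was also highest in neutrophil-like cells, but by 1.95 times titled Blood and 2.34 times titled Control over the second class.

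Ddx60 (chr8:61928087-62038244, plus strand) is a helicase that assists RNA sensing. Titled Blood, Ddx60 was at 11.5 CPM in macrophage-like, 15.4 in monocyte-like, 7.204 in conventional DC-like, 76.1 in neutrophil-like, 14.7 in T cell-like and 5.63 in NK cell-like cells. Titled Control, Ddx60 was at 19.6 CPM in macrophage-like, 14.95 in monocyte-like, 12.6 in conventional DC-like, 146 in neutrophil-like, 29.1 in T cell-like and 7.12 in NK cell-like cells. Neutrophil-like cells exceeded the second of the 6 classes 4.96 times titled Blood and 5.02 times titled Control, and the mixed cells 4.77 times titled Blood and 4.11 times titled Control. In raw counts titled Blood, Ddx60 had 244 UMIs in 1773 neutrophil-like cells and 820 in 4931 macrophage-like cells. The counts titled Control were 38 UMIs in 129 neutrophil-like cells and 1453 in 4625 macrophage-like cells. Macrophage-like clusters were uneven, and cluster 12 among them held Ddx60 at 50.3 CPM titled Blood and 74.2 CPM titled Control. Oasl2 (chr5:114896936-114912234, plus strand) and Oas2 (chr5:120730333-120749853, minus strand) belong to the oligoadenylate synthetase family, which arms RNase L to cut viral RNA. Titled Blood, Oasl2 was at 56.7 CPM in macrophage-like, 173 in monocyte-like, 103 in conventional DC-like, 452 in neutrophil-like, 13.5 in T cell-like and 7.504 in NK cell-like cells. Titled Control, Oasl2 was at 91.3 CPM in macrophage-like, 220.1 in monocyte-like, 132 in conventional DC-like, 651 in neutrophil-like, 34.2 in T cell-like and 18.2 in NK cell-like cells. T cell- and NK cell-like cells were the 2 lowest classes. Titled Blood, Oas2 was at 13.1 CPM in macrophage-like, 52.6 in monocyte-like, 16.7 in conventional DC-like, 60.8 in neutrophil-like, 4.83 in T cell-like and 4.69 in NK cell-like cells. Titled Control, Oas2 was at 22.2 CPM in macrophage-like, 45.5 in monocyte-like, 20.8 in conventional DC-like, 84.7 in neutrophil-like, 8.11 in T cell-like and 4.002 in NK cell-like cells. The lymphoid classes were again the 2 lowest, under 10 CPM in both libraries.

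Ifi204 (chr1:173747293-173766943, minus strand) is a PYHIN protein that senses DNA. Titled Blood, Ifi204 was at 129.9 CPM in macrophage-like, 597 in monocyte-like, 119 in conventional DC-like, 421 in neutrophil-like, 13.7 in T cell-like and 28.6 in NK cell-like cells. Titled Control, Ifi204 was at 182 CPM in macrophage-like, 653 in monocyte-like, 179 in conventional DC-like, 547 in neutrophil-like, 29.3 in T cell-like and 71.6 in NK cell-like cells. Monocyte-like cells were highest, and the highest class exceeded the lowest 43.5 times titled Blood and 22.3 times titled Control. Ifi205 (chr1:174011998-174031810, minus strand), from the same gene family, was graded, and was bound to a lineage in 4 of 13 alternative settings. Titled Blood, Ifi205 was at 13.4 CPM in macrophage-like, 128 in monocyte-like, 212 in conventional DC-like, 5.62 in neutrophil-like, 1.02 in T cell-like and 1.88 in NK cell-like cells. Titled Control, Ifi205 was at 20.2 CPM in macrophage-like, 112 in monocyte-like, 213 in conventional DC-like, 7.700 in neutrophil-like, 3.905 in T cell-like and 1.33 in NK cell-like cells. Conventional DC-like cells were highest in both libraries, and the T cell- and NK cell-like levels were the lowest.

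**Figure D2:**
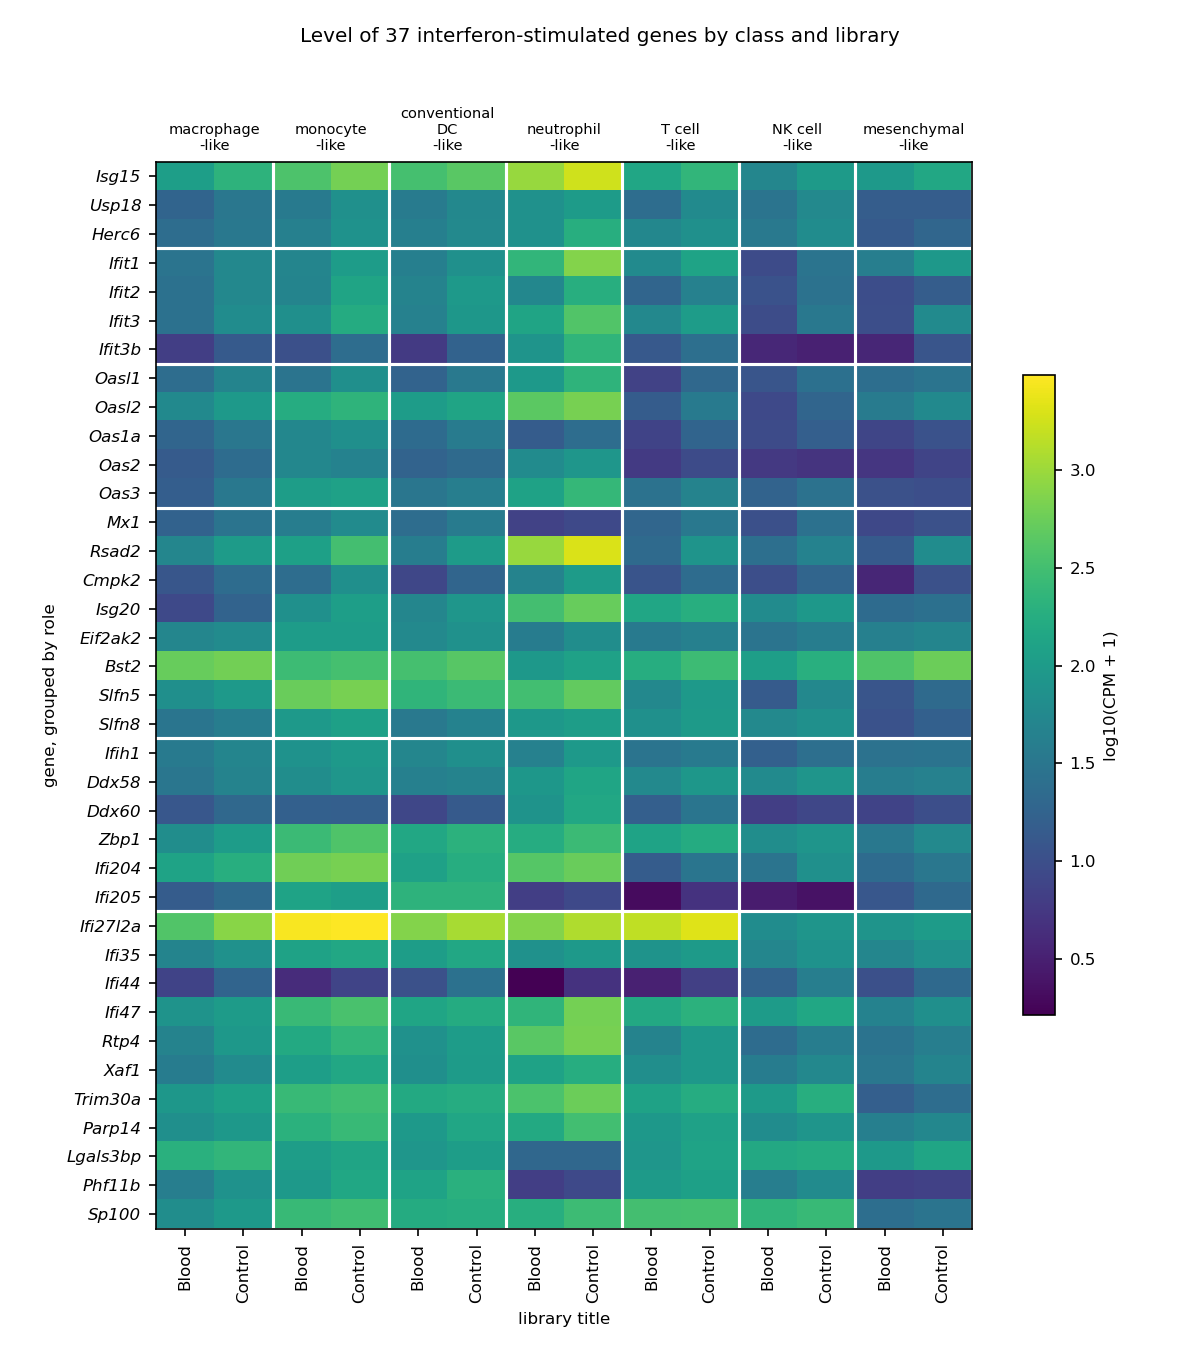
Level of the 37 genes, as log10 of CPM plus 1, in 7 classes, with the library titled Blood left of the library titled Control in each; white lines part the roles named in the text. Rsad2 and Isg15 are brightest in neutrophil-like cells, Bst2 in macrophage-like cells and Ifi27l2a in monocyte-like cells.

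Among the graded genes, those with the most UMIs differed in which class led. Ifi27l2a (chr12:103442167-103443680, minus strand), a small interferon-induced membrane protein, was high in monocytes and T cells and low in NK cells. Titled Blood, Ifi27l2a was at 399 CPM in macrophage-like, 2807 in monocyte-like, 759.9 in conventional DC-like, 749.7 in neutrophil-like, 1486 in T cell-like and 63.3 in NK cell-like cells. Titled Control, Ifi27l2a was at 802 CPM in macrophage-like, 3061 in monocyte-like, 1139.8 in conventional DC-like, 1236 in neutrophil-like, 2147 in T cell-like and 82.7 in NK cell-like cells. The top class exceeded NK cell-like cells 44.3 times titled Blood and 37.01 times titled Control, while T cell-like cells ranked second in both libraries. Bst2 (chr8:71534255-71537456, minus strand) encodes tetherin, which holds budding virions on the cell surface. Titled Blood, Bst2 was at 524 CPM in macrophage-like, 281 in monocyte-like, 326 in conventional DC-like, 88.6 in neutrophil-like, 178 in T cell-like and 111 in NK cell-like cells. Titled Control, Bst2 was at 619 CPM in macrophage-like, 335 in monocyte-like, 429 in conventional DC-like, 119 in neutrophil-like, 288 in T cell-like and 189 in NK cell-like cells. Macrophage-like cells led and neutrophil-like cells, the top class of Rsad2, were lowest. In the few plasmacytoid DC-like cells, 4 titled Blood and 23 titled Control, Bst2 was at 2833 CPM (2275 to 3486) titled Blood and 4027 CPM (3754 to 4316) titled Control.

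Isg15 (chr4:156199424-156200818, minus strand), the ubiquitin-like protein attached to other proteins in the antiviral state, followed the neutrophil-led order. Titled Blood, Isg15 was at 111 CPM in macrophage-like, 368 in monocyte-like, 329.9 in conventional DC-like, 961 in neutrophil-like, 142 in T cell-like and 50.7 in NK cell-like cells. Titled Control, Isg15 was at 213 CPM in macrophage-like, 641 in monocyte-like, 444 in conventional DC-like, 1798 in neutrophil-like, 234 in T cell-like and 96.9 in NK cell-like cells. NK cell-like cells were lowest in both libraries. Lgals3bp (chr11:118392751-118402092, minus strand), a secreted glycoprotein that binds galectins, had macrophage-like cells first and NK cell-like cells second. Titled Blood, Lgals3bp was at 196 CPM in macrophage-like, 107 in monocyte-like, 84.2 in conventional DC-like, 19.03 in neutrophil-like, 85.3 in T cell-like and 153 in NK cell-like cells. Titled Control, Lgals3bp was at 233 CPM in macrophage-like, 133 in monocyte-like, 107 in conventional DC-like, 19.2 in neutrophil-like, 126 in T cell-like and 165 in NK cell-like cells. The neutrophil-like level titled Control was not above what free macrophage RNA could give.

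Trim30a (chr7:104409025-104465193, minus strand) and Ifi47 (chr11:49076587-49096974, plus strand), an immunity-related GTPase, were lowest in macrophage-like cells. Titled Blood, Trim30a was at 86.8 CPM in macrophage-like, 259.9 in monocyte-like, 157 in conventional DC-like, 356 in neutrophil-like, 125 in T cell-like and 98.96 in NK cell-like cells. Titled Control, Trim30a was at 119 CPM in macrophage-like, 301 in monocyte-like, 174 in conventional DC-like, 569.8 in neutrophil-like, 170.0 in T cell-like and 182 in NK cell-like cells. Titled Blood, Ifi47 was at 76.4 CPM in macrophage-like, 270.3 in monocyte-like, 137 in conventional DC-like, 226 in neutrophil-like, 155 in T cell-like and 101 in NK cell-like cells. Titled Control, Ifi47 was at 101 CPM in macrophage-like, 347 in monocyte-like, 168 in conventional DC-like, 635 in neutrophil-like, 207 in T cell-like and 144 in NK cell-like cells. The top class of Trim30a was neutrophil-like in both libraries, while that of Ifi47 was monocyte-like titled Blood and neutrophil-like titled Control. The same class was highest in both libraries for 35 of 37 genes and lowest for 33 of 37. Counting only genes that kept their class, neutrophil-like cells were highest in both libraries for 19 genes and monocyte-like cells for 10. NK cell-like cells were lowest in both libraries for 16 genes and macrophage-like cells for 9.

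A few genes broke this order. Sp100, a protein of PML nuclear bodies, was highest in T cell-like cells, at 324 CPM titled Blood and 334 CPM titled Control. Ifi44, a gene of uncertain function in mice, was highest in NK cell-like cells, at 16.4 CPM titled Blood and 39.6 CPM titled Control, and in neutrophil-like cells was not above the free-RNA level. Phf11b, a PHD finger gene, was highest in conventional DC-like cells, at 127 CPM titled Blood and 194 CPM titled Control. Mx1, the GTPase that blocks influenza virus and carries a disabling deletion in C57BL/6 mice, was highest in monocyte-like cells, at 38.9 CPM titled Blood and 61.6 CPM titled Control, and in neutrophil-like cells was at 6.24 CPM titled Blood and 7.700 CPM titled Control. Mx1, Ifi44, Bst2, Lgals3bp and Phf11b were lowest in the class where Rsad2 and the IFIT genes were highest.

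Set side by side, the summed level of the 37 genes was lower titled Blood than titled Control in all 6 classes. In macrophage-like cells the 37 genes summed to 2477 CPM (2466 to 2489) titled Blood and 3846 CPM (3832 to 3860.0) titled Control, a ratio of 0.644 (0.6403 to 0.648). Of 37 measured genes (at least 10 CPM in one library and 10 UMIs in all) 25 were lower by 1.5-fold or more and 0 higher by as much, while among all 7817 genes measured in these cells 1.02% were that much lower and 0.627% higher. The median log2 ratio was -0.63, beside 0.01 over all measured genes and -0.05 over 11 housekeeping genes. For each of the 37 the interval of the ratio lay below 1. Ifit3 was at 26.3 CPM titled Blood and 63.5 CPM titled Control, a ratio of 0.413 (0.392 to 0.436). Ifi27l2a was at 399 CPM titled Blood and 802 CPM titled Control, a ratio of 0.497 (0.4902 to 0.504). These, with Ifi44 (ratio 0.359 (0.322 to 0.4005)), Rsad2 (0.502 (0.483 to 0.523)), Oasl1 (0.478 (0.451 to 0.507)) and Ifit2 (0.483 (0.457 to 0.511)), had the lowest log2 ratios of the set. At the other end were Slfn8, at 29.9 CPM titled Blood and 38.5 CPM titled Control, Eif2ak2, at 50.6 CPM titled Blood and 61.1 CPM titled Control, Lgals3bp, at 196 CPM titled Blood and 233 CPM titled Control, and Bst2, at 524 CPM titled Blood and 619 CPM titled Control, with ratios between 0.777 and 0.846. Weighting each macrophage-like cluster alike, in place of by its cells, the median was -0.51, with 19 genes at least 1.5-fold lower. No share of all genes is given for that weighting. Summed neutrophil markers in these cells were at 195 CPM titled Blood and 116 CPM titled Control, with 0 of the 10 absent in either library, and their part in the result was not tested.

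Monocyte-like cells had the highest summed level of the 6 classes titled Blood, 7852 CPM (7724 to 7981) titled Blood and 9929 CPM (9778 to 10081) titled Control, a ratio of 0.791 (0.773 to 0.809). Here 13 of 36 measured genes were at least 1.5-fold lower and 0 higher, against 4.92% and 5.86% of all measured genes, with a median log2 ratio of -0.35. With each library clustered on its own 29 of 36 genes were lower in this class, the median was -0.95 and the ratio of the sum 0.558. The shares of all genes above are not for that setting, so its count has no background beside it. Rsad2 was at 118 CPM titled Blood and 322 CPM titled Control, Ifit2 at 47.2 CPM titled Blood and 130.4 CPM titled Control and Cmpk2, the mitochondrial nucleotide kinase next to Rsad2 on chromosome 12, at 23.03 CPM titled Blood and 67.6 CPM titled Control. Ifit3 was at 68.5 CPM titled Blood and 168 CPM titled Control, Oasl1 at 28.5 CPM titled Blood and 68.8 CPM titled Control and Ifit3b at 9.32 CPM titled Blood and 23.3 CPM titled Control. The ratios of these 6 lay between 0.341 and 0.415. Eif2ak2 had a ratio of 1.02 (0.824 to 1.26), Ddx60 of 1.03 (0.577 to 1.84), Ifi205 of 1.15 (0.943 to 1.398) and Oas2 of 1.16 (0.848 to 1.59), so for these 4 the libraries could not be told apart by counting. Ifi27l2a, the most counted gene of the set, was at 2807 CPM titled Blood and 3061 CPM titled Control. The summed neutrophil markers in monocyte-like cells were at 729.8 CPM titled Blood and 2290.1 CPM titled Control, and their part in the result was not tested.

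In conventional DC-like cells the sum was 3860.0 CPM (3785 to 3936) titled Blood and 5356 CPM (5276 to 5437) titled Control, a ratio of 0.721 (0.703 to 0.739). Of 37 measured genes 14 were at least 1.5-fold lower and 0 higher, against 3.34% and 4.5% of all measured genes, and the median log2 ratio was -0.49. Rsad2 was at 39.1 CPM titled Blood and 102 CPM titled Control, Ifit3b at 4.93 CPM titled Blood and 16.4 CPM titled Control and Ifi44 at 9.48 CPM titled Blood and 25.8 CPM titled Control. Ifit2 was at 46.3 CPM titled Blood and 95.4 CPM titled Control, Ifit3 at 43.2 CPM titled Blood and 85.98 CPM titled Control and Cmpk2 at 7.204 CPM titled Blood and 17.95 CPM titled Control. All 6 had intervals of the ratio below 1. Ifi205, the gene this class led, had a ratio of 0.997 (0.8901 to 1.12), Sp100 of 0.949 (0.837 to 1.08), Ddx58 of 0.897 (0.695 to 1.15) and Trim30a of 0.904 (0.794 to 1.03). Summed macrophage markers were at 1208 CPM titled Blood and 2882 CPM titled Control in this class, and their part in the result was not tested.

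Neutrophil-like cells summed to 7348 CPM (7255 to 7443) titled Blood and 13506 CPM (13062 to 13960.0) titled Control, a ratio of 0.544 (0.525 to 0.564), but rested on 129 cells and 259745 UMIs titled Control. Of 33 measured genes 23 were at least 1.5-fold lower and 0 higher, against 18.1% and 24.3% of all measured genes, a far wider background than in the other classes. The median log2 ratio was -0.70, beside 0.05 over all measured genes. Ifit2 was at 53.04 CPM titled Blood and 185 CPM titled Control, Ifit1 at 232 CPM titled Blood and 762.3 CPM titled Control and Ifit3 at 134 CPM titled Blood and 393 CPM titled Control. Ifi47 was at 226 CPM titled Blood and 635 CPM titled Control, Ifit3b at 79.9 CPM titled Blood and 227 CPM titled Control and Herc6, the mouse ligase for ISG15, at 73.6 CPM titled Blood and 185 CPM titled Control. The largest of these 6 ratios was 0.398 (0.291 to 0.555), for Herc6. Ifi204 had a ratio of 0.7704 (0.648 to 0.922), Ifi35 of 0.787 (0.516 to 1.253), Slfn8 of 0.831 (0.563 to 1.27) and Lgals3bp of 0.989 (0.401 to 3.15), the last 3 with intervals that include 1.

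In T cell-like cells the sum was 3738 CPM (3696 to 3781) titled Blood and 5489 CPM (5433 to 5546) titled Control, a ratio of 0.681 (0.671 to 0.692). Of 34 measured genes 19 were at least 1.5-fold lower and 0 higher, against 2.01% and 2.09% of all measured genes, with a median log2 ratio of -0.68. Rsad2 was at 21.1 CPM titled Blood and 78.5 CPM titled Control, Usp18, which strips ISG15 and blunts the receptor, at 22.7 CPM titled Blood and 58.4 CPM titled Control, and Oasl1 at 6.095 CPM titled Blood and 19.8 CPM titled Control. Oasl2 was at 13.5 CPM titled Blood and 34.2 CPM titled Control, Ifit1 at 58.3 CPM titled Blood and 127 CPM titled Control and Ifit2 at 18.3 CPM titled Blood and 43.1 CPM titled Control. Rsad2 had the lowest ratio, 0.268 (0.224 to 0.3202). Phf11b (0.817 (0.738 to 0.903)), Ifih1 (0.809 (0.6705 to 0.977)), which encodes the sensor of long viral RNA, and Eif2ak2 (0.825 (0.697 to 0.976)) were closer to even, and Sp100, the gene this class led, was at 0.972 (0.918 to 1.03). Summed neutrophil markers in T cell-like cells were at 166 CPM titled Blood and 70.9 CPM titled Control, and their part in the result was not tested.

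NK cell-like cells had the lowest sum of the 6 classes, 1546 CPM (1493 to 1599) titled Blood and 2379 CPM (2315 to 2443) titled Control, a ratio of 0.6498 (0.622 to 0.679). Of 33 measured genes 21 were at least 1.5-fold lower and 0 higher, against 3.97% and 5.69% of all measured genes, with a median log2 ratio of -0.65. Slfn5 was at 13.1 CPM titled Blood and 54.3 CPM titled Control, a ratio of 0.242 (0.154 to 0.367), the lowest in this class. Ifit3 was at 8.44 CPM titled Blood and 32.02 CPM titled Control, Ifit1 at 7.97 CPM titled Blood and 28.5 CPM titled Control and Ifi204 at 28.6 CPM titled Blood and 71.6 CPM titled Control. Ifit2 was at 9.85 CPM titled Blood and 27.1 CPM titled Control and Mx1 at 9.38 CPM titled Blood and 25.8 CPM titled Control. Slfn8 (0.776 (0.606 to 0.991)), Zbp1 (0.779 (0.6199 to 0.978)), a sensor of Z-form nucleic acid, Sp100 (0.861 (0.761 to 0.973)) and Lgals3bp (0.927 (0.797 to 1.08)) had the highest ratios. Summed neutrophil markers in NK cell-like cells were at 149 CPM titled Blood and 22.7 CPM titled Control, and their part in the result was not tested.

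Mesenchymal-like cells, 54 titled Blood and 102 titled Control, were the non-immune class of the tumours. The sum was 1308 CPM (1270.0 to 1347) titled Blood and 2005 CPM (1968 to 2042) titled Control, a ratio of 0.652 (0.6300 to 0.675), and 15 of 30 measured genes were at least 1.5-fold lower and 0 higher, against 3.39% and 2.76% of all measured genes. Ifit3 had the lowest log2 ratio of any class here, -2.17, at 9.09 CPM titled Blood and 58.3 CPM titled Control. Rsad2 was at 12.9 CPM titled Blood and 61.7 CPM titled Control, Ifit3b at 2.64 CPM titled Blood and 11.02 CPM titled Control and Ifit1 at 40.2 CPM titled Blood and 89.4 CPM titled Control. Ifi44 was at 9.38 CPM titled Blood and 20.6 CPM titled Control and Slfn5 at 10.8 CPM titled Blood and 21.3 CPM titled Control. Isg20, an exonuclease (0.858 (0.641 to 1.14)), Ddx58 (0.887 (0.714 to 1.099)), Ifih1 (0.985 (0.752 to 1.28)) and Usp18 (1.001 (0.685 to 1.45)) had intervals that include 1. Summed macrophage markers in mesenchymal-like cells were at 2309.8 CPM titled Blood and 1312 CPM titled Control, and their part in the result was not tested. In the mixed monocyte-macrophage cells the sum was 6855 CPM (6795 to 6915) titled Blood and 11551 CPM (11480.4 to 11622) titled Control, a ratio of 0.593 (0.587 to 0.5998), and 29 of 37 genes were at least 1.5-fold lower and 0 higher, against 3.18% and 2.25% of all measured genes. These cells held macrophage markers at 7509.5 CPM titled Blood and 11282 CPM titled Control and neutrophil markers at 572 CPM titled Blood and 303 CPM titled Control, and their part in the result was not tested.

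**Figure D3:**
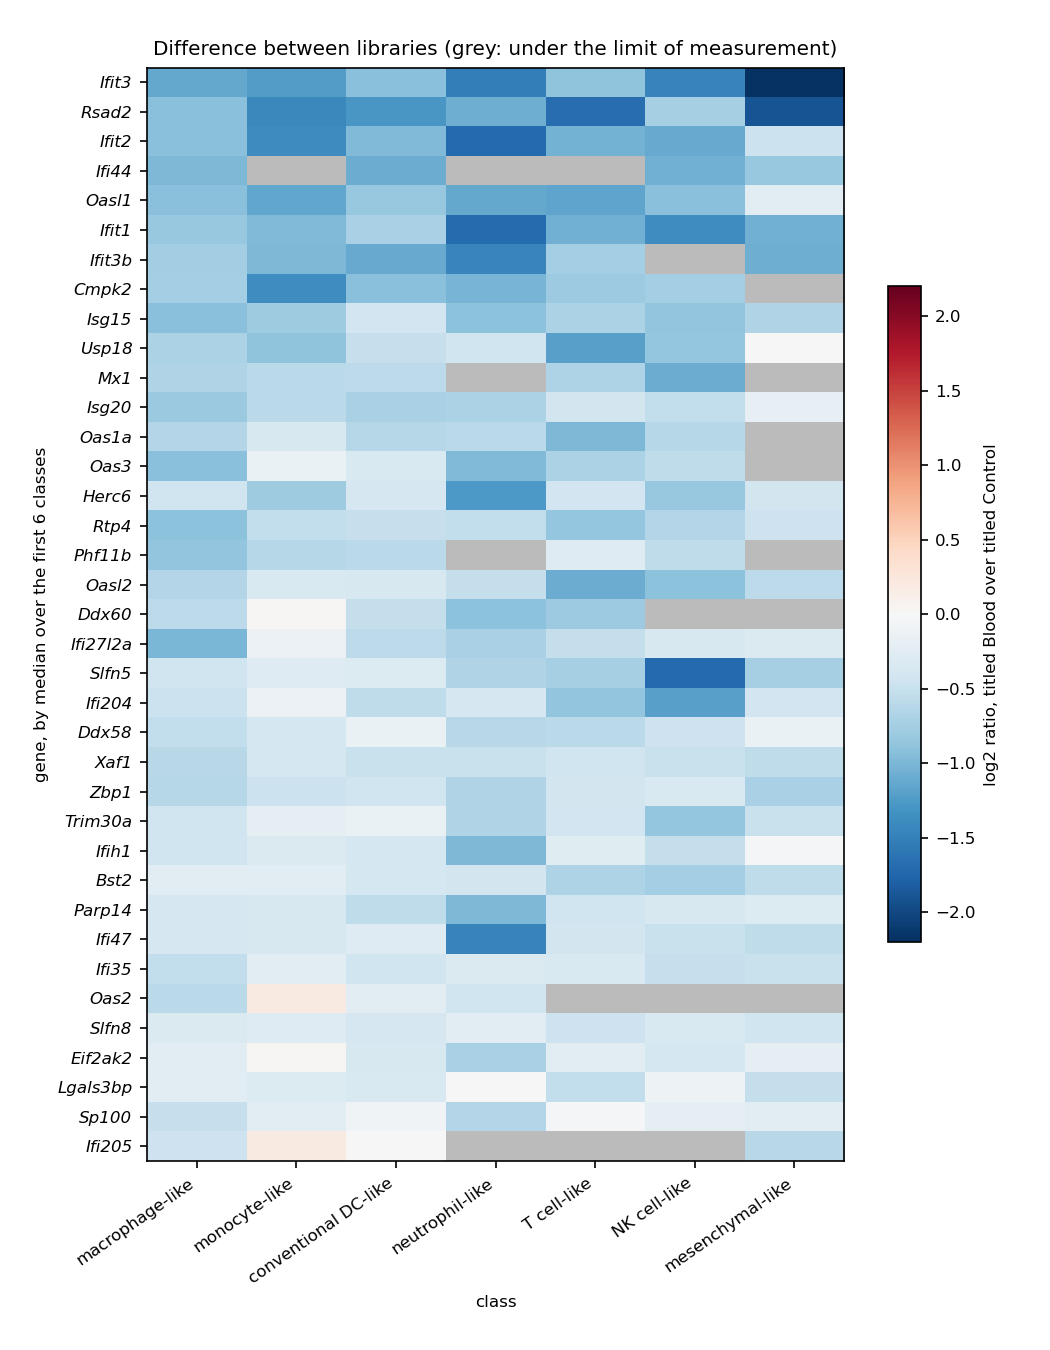
Log2 ratio of the library titled Blood over the library titled Control (5 CPM added to each level) for 37 genes in 7 classes; blue is lower titled Blood, red higher, and grey marks genes under the limit of measurement. Nearly the whole map is blue, with Ifit3, Rsad2 and Ifit2 at the top and Sp100 and Ifi205 at the bottom.

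Read by role, the IFIT family was lower in each class. Each of its measured genes, 4 in 5 of the classes and 3 in NK cell-like cells, was at least 1.5-fold lower titled Blood, and the family summed to 86.4 CPM titled Blood and 185 CPM titled Control in macrophage-like cells and to 143 CPM titled Blood and 298 CPM titled Control in T cell-like cells. Of the ISG15 system (Isg15, Usp18, Herc6) 2 of 3 were lower in macrophage-like cells, 3 of 3 in monocyte- and NK cell-like cells and 0 of 3 in conventional DC-like cells. All 5 oligoadenylate synthetase genes (Oasl1, Oasl2, Oas1a, Oas2, Oas3) were lower in macrophage-like cells, but 1 of 5 in monocyte-like cells, where Oas3 was at 109 CPM titled Blood and 121 CPM titled Control. The nucleic acid sensors (Ifih1, Ddx58, Ddx60, Zbp1, Ifi204, Ifi205) had 4 of 6 members past 1.5-fold in macrophage-like cells, against 0 of 6 in monocyte-like and, with Ddx60 alone, 1 of 6 in conventional DC-like cells. Of the 8 other antiviral effectors (7 measured in neutrophil-like cells) 4 were lower in each of macrophage-, monocyte- and conventional DC-like cells. In each of neutrophil-, T cell- and NK cell-like cells 5 were lower. Of the 11 remaining genes 6 were lower in macrophage-like, 4 in NK cell-like and 3 in conventional DC-like cells. It was 5 of 9 measured in neutrophil-like cells and 1 of 10 in each of monocyte- and T cell-like cells. Among all measured genes 1.02% were that much lower in macrophage-, 4.92% in monocyte- and 3.34% in conventional DC-like cells. The share was 18.1% in neutrophil-, 2.01% in T cell- and 3.97% in NK cell-like cells. Across the 6 classes Cmpk2, Ifit1, Ifit2, Ifit3, Oasl1 and Rsad2 were at least 1.5-fold lower in every class, and Lgals3bp and Slfn8 in 0 classes. No share of all genes lower in every class is given beside this.

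Rtp4, a chaperone of membrane receptors, shows how the rank of classes and the difference between libraries were separate readings. It was highest in neutrophil-like cells, at 438 CPM titled Blood and 643 CPM titled Control, a ratio of 0.681 (0.5795 to 0.804). In macrophage-like cells it was at 45.8 CPM titled Blood and 89.5 CPM titled Control, a ratio of 0.512 (0.491 to 0.534), the lower of the 2. Isg20 was likewise highest in neutrophil-like cells, at 320.1 CPM titled Blood and 524 CPM titled Control, and lowest in macrophage-like cells, at 7.502 CPM titled Blood and 17.1 CPM titled Control. Oas1a was highest in monocyte-like cells, at 52.1 CPM titled Blood and 67.6 CPM titled Control, and in T cell-like cells was at 6.35 CPM titled Blood and 17.6 CPM titled Control.

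Within the classes the difference was uneven between clusters. The 7 macrophage-like clusters had ratios of the sum from 0.568 to 0.8696. Cluster 4, the lowest, was at 1844 CPM titled Blood and 3248 CPM titled Control, with 32 of 36 measured genes at least 1.5-fold lower, against 1.3% of all measured genes in that cluster. Cluster 7, with 384 cells titled Blood and 929 titled Control, was at 3659 CPM titled Blood and 4208 CPM titled Control, with 2 of 37 genes at least 1.5-fold lower, against 0.71% of all, and a median log2 ratio of -0.10. In that cluster Isg15 was at 273 CPM titled Blood and 267 CPM titled Control, whereas in cluster 4 it was at 70.4 CPM titled Blood and 186 CPM titled Control. Cluster 12, led by Retnla, Ccl8 and Lyve1, had the highest sum of the macrophage-like clusters, 5974 CPM titled Blood and 6871 CPM titled Control, a ratio of 0.869. An unnamed cluster led by Ppbp, Hmox1 and Arg1 (910 cells titled Blood and 390 titled Control) was at 2706 CPM titled Blood and 2793 CPM titled Control, a ratio of 0.969, with 5 of 35 genes at least 1.5-fold lower, against 1.11% of all.

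T cell-like clusters differed more in level than in ratio. The cluster led by Tnfrsf4, Il2ra, Ctla4 and Foxp3, genes of regulatory T cells, was at 7143 CPM titled Blood and 9811 CPM titled Control, a ratio of 0.728. The cluster led by Cd8b1 and Cd8a was at 3173 CPM titled Blood and 4427 CPM titled Control, a ratio of 0.717. The cluster led by Cd3g, Ccl1 and Cd4 was at 3929 CPM titled Blood and 6502 CPM titled Control, a ratio of 0.604, with 29 of 33 genes at least 1.5-fold lower, against 11% of all measured genes. Osteoclast-like cells had the lowest sum of the named clusters titled Blood, 999.8 CPM titled Blood and 1887 CPM titled Control, and B cell-like cells, 62 titled Blood and 38 titled Control, had a ratio of 0.868, with 5 of 31 genes at least 1.5-fold lower and 3 higher, against 13.9% and 21% of all measured genes, so the members' counts lay near or under the background there.

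**Figure D4:**
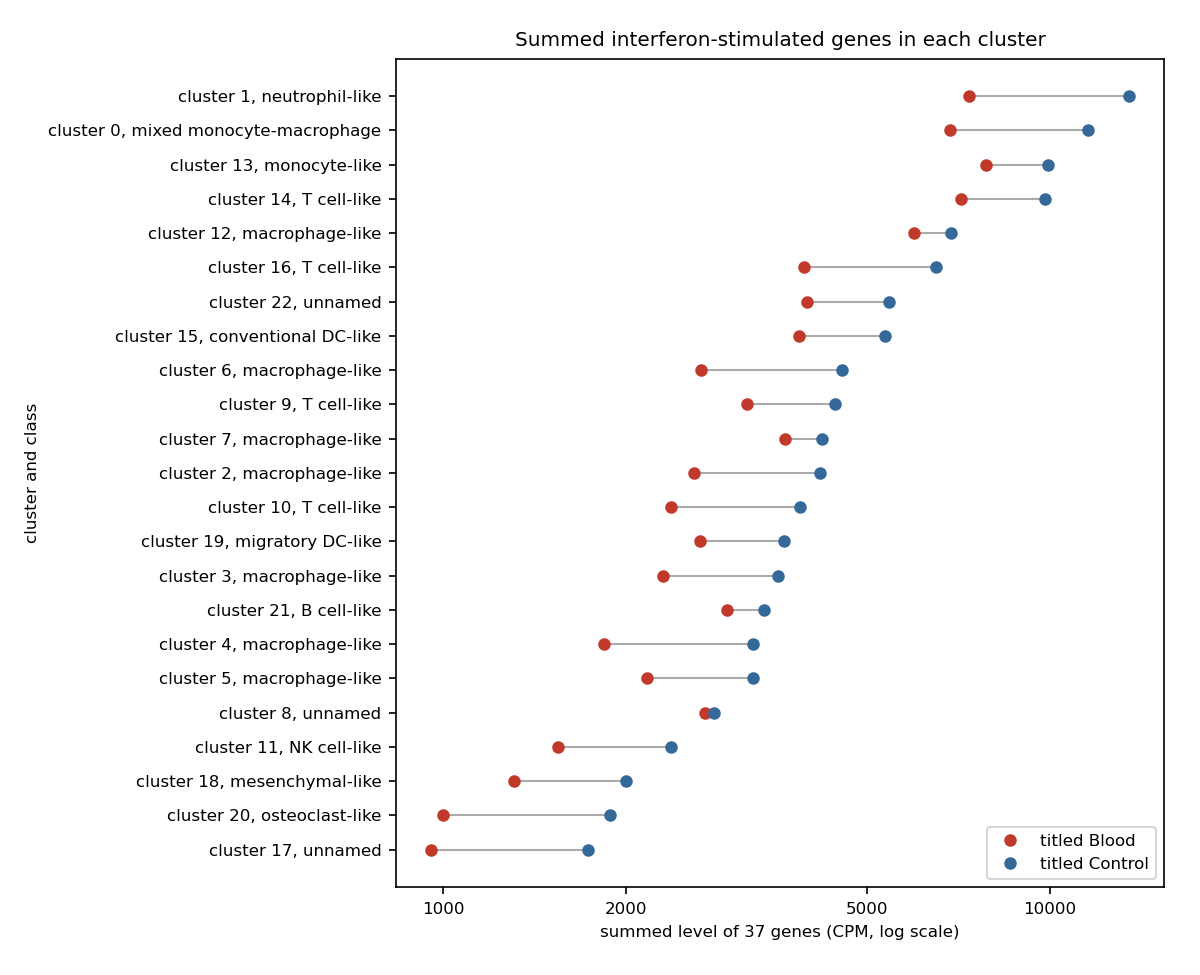
Summed CPM of the 37 genes in each cluster with at least 18 cells per library, on a log axis; red points are the library titled Blood, blue points the library titled Control. The red point lies left of the blue one in every cluster drawn, and the gap is narrowest in cluster 8 (2706 CPM titled Blood and 2793 CPM titled Control).

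The spread over cells was read after thinning each cell to 1000 UMIs, which left out 219 macrophage-like cells titled Blood and 97 titled Control. A macrophage-like cell then held a median of 2 UMIs of the set titled Blood and 3 titled Control. The upper quartile was 3 UMIs titled Blood and 6 titled Control, and the 90th percentile 6 UMIs titled Blood and 10 titled Control. Cells with 0 UMIs of the set made up 19.9% titled Blood and 11.8% titled Control, so both ends of the distribution lay lower titled Blood. Without thinning, the summed level was the 2477 CPM titled Blood and 3846 CPM titled Control given above.

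Thinning left out 211 neutrophil-like cells titled Blood, keeping 1562, and 5 titled Control, keeping 124. Neutrophil-like cells had the longest upper tail of the 6 classes. Their median was 4 UMIs titled Blood and 8 titled Control, and the 95th percentile 28 UMIs titled Blood and 63.85 titled Control. The top 10% of cells held 41.8% of the set's UMIs titled Blood and 46.00% titled Control, against 24.6% titled Blood and 29.5% titled Control in monocyte-like cells, where the signal was spread most evenly. In NK cell-like cells the median was 1 UMI in both libraries, and the libraries parted above it, with a 90th percentile of 4 UMIs titled Blood and 7 titled Control. Cells with 0 UMIs made up 27.7% of NK cell-like cells titled Blood and 27.6% titled Control. T cell-like cells had a median of 2 UMIs titled Blood and 3.5 titled Control.

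**Figure D5:**
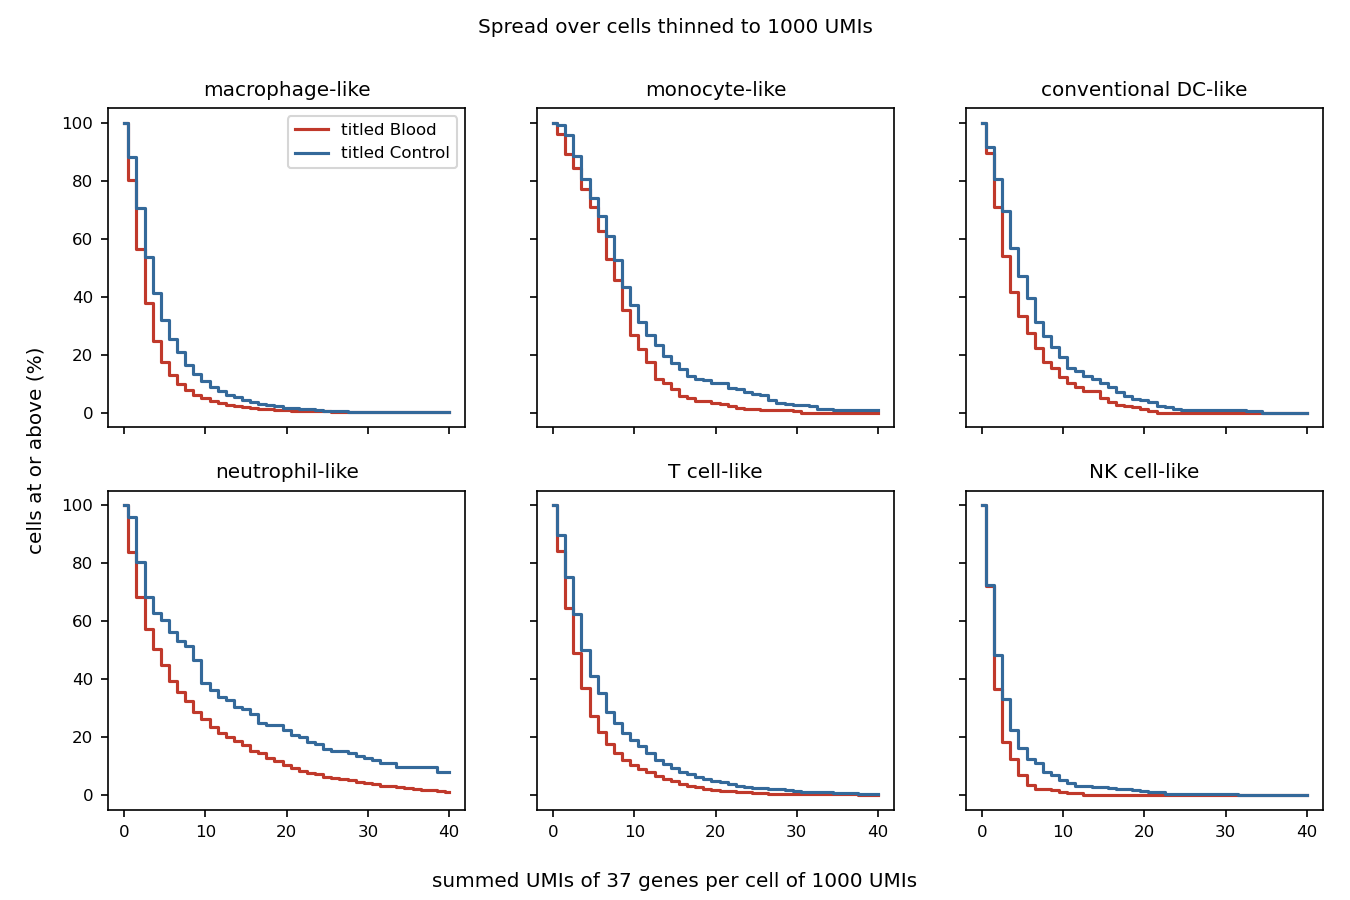
Share of cells (vertical axis, %) with at least a given number of UMIs of the 37 genes (horizontal axis) after thinning to 1000 UMIs, in 6 classes; red is the library titled Blood, blue the library titled Control. In macrophage-like cells the red curve lies below the blue one through its middle range, and in NK cell-like cells the curves meet at 1 UMI and part above it.

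The rest of the pathway was set beside the genes it drives. Ligands were nearly absent: Ifna1, Ifna2, Ifna4, Ifna5, Ifnab, Ifne, Ifnl2 and Ifnl3 had 0 UMIs in all kept cells of both libraries, which allows up to 3 UMIs per library. Ifnb1 had 5 UMIs titled Blood and 20 titled Control, a ratio of 0.252 (0.0739 to 0.692) after scaling to all kept UMIs. Of the 20 titled Control, 13 came from 2 of the 102 mesenchymal-like cells, and the 54 mesenchymal-like cells titled Blood held 0. Ifng, made by T and NK cells, was the ligand with counts, and in T cell-like cells was at 438 CPM titled Blood and 249.9 CPM titled Control, a ratio of 1.75 (1.65 to 1.86), opposite in direction to the set. In NK cell-like cells Ifng was within 1.5-fold.

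Next came the receptors and signal carriers in macrophage-like cells. Of 5 measured receptor genes 0 passed 1.5-fold in either direction, and Ifnar1 was at 106 CPM titled Blood and 106 CPM titled Control and Ifnar2 at 93.3 CPM titled Blood and 95.8 CPM titled Control. Among the signal carriers Stat2 was at 39.4 CPM titled Blood and 50.9 CPM titled Control, Jak1 at 109 CPM titled Blood and 113 CPM titled Control and Tyk2 at 30.04 CPM titled Blood and 29.5 CPM titled Control. Jak2, a kinase of the interferon gamma receptor, was at 44.6 CPM titled Blood and 30.8 CPM titled Control, a ratio of 1.45 (1.37 to 1.53), higher titled Blood but within 1.5-fold. Of 6 interferon regulatory factors 1 was lower, Irf7, which amplifies the response and is itself induced by it, at 104 CPM titled Blood and 223 CPM titled Control, a ratio of 0.465 (0.453 to 0.478). Irf8 was at 258 CPM titled Blood and 271 CPM titled Control and Irf1 at 90.9 CPM titled Blood and 90.97 CPM titled Control. Irf7 was past 1.5-fold lower in T cell-like cells too, at 70.9 CPM titled Blood and 139.8 CPM titled Control, in neutrophil-like cells, at 179.7 CPM titled Blood and 397 CPM titled Control, and in conventional DC-like cells, at 133 CPM titled Blood and 292 CPM titled Control. It was within 1.5-fold in monocyte-like cells, at 290.1 CPM titled Blood and 395 CPM titled Control, and in NK cell-like cells, at 78.8 CPM titled Blood and 112 CPM titled Control.

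Of 11 measured genes of upstream nucleic acid sensing 1 was lower in macrophage-like cells, Dhx58 (LGP2, a helper of RNA sensing), at 30.5 CPM titled Blood and 46.4 CPM titled Control, and of 8 measured brakes 1 was lower, Usp18, which is in the set itself. Samhd1, which depletes nucleotides, was at 224 CPM titled Blood and 263 CPM titled Control and Socs3 at 158 CPM titled Blood and 162 CPM titled Control. Of 11 measured genes led by interferon gamma 0 passed 1.5-fold in macrophage-like cells, and the chemokine Cxcl9 was at 702 CPM titled Blood and 593 CPM titled Control and Cxcl10, which both interferon types induce, at 350.1 CPM titled Blood and 466 CPM titled Control. In neutrophil-like cells 5 of 10 measured genes of that list were at least 1.5-fold lower and 1 higher. Of all genes measured in neutrophil-like cells 18.1% were that much lower and 24.3% higher. In T cell-like cells 3 of 10 were lower, against 2.01% of all measured genes. In T cell-like cells Cxcl9 was at 12.95 CPM titled Blood and 28.5 CPM titled Control and Cxcl10 at 74.8 CPM titled Blood and 152 CPM titled Control, beside summed macrophage markers of 611 CPM titled Blood and 768 CPM titled Control, whose part in the result was not tested.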

How the data were processed

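Tumour cells of 2 libraries, 1 titled Blood and 1 titled Control, were profiled with 10x Genomics 3′ v3 chemistry for single cells, per the labels' protocols. The files the authors deposited hold whole UMI counts for each gene in each barcode, written by Cell Ranger 3.1.0, per the file headers. The submitters' processing notes name the build mm10. The annotation release, how barcodes were called and whether cells were sorted are not stated. UMIs are read from transcript ends, so genes of one family with alike ends can share or lose reads.

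Cells with at least 300 genes, 500 UMIs and no more than 20% of UMIs from mitochondria were kept, and doublets called by Scrublet (scanpy 1.11.5) at an expected 0.8% per 1000 barcodes were removed. Both libraries were clustered together on 2000 variable genes without the set and the other interferon genes, 30 components and 15 neighbours, by Leiden clustering (resolution 1, leidenalg 0.10.2, igraph 0.11.9) and no batch integration. Clusters were named from 18 marker lists by a score of at least 0.5, a margin of 0.35 and at least 3 markers in 5% of cells. Clusters of low UMIs, whose median fell under 1/3 of that of all kept cells, needed an own marker among their top 10 genes, and monocyte-like clusters with over 10% of the macrophage-like C1q level were kept apart as mixed. These limits were set with the data in view, so a difference from other accounts of the study may come from the names.

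Counts were summed per class and library and scaled to CPM. Intervals are exact Poisson for levels and conditional binomial for ratios (scipy 1.17.1), at 95%, and cover counting error only. Ratios are titled Blood over titled Control. A gene was measured with at least 10 CPM in one library and 10 UMIs over both. Log2 ratios add 5 CPM to each level, which draws low genes towards 0, while the 1.5-fold calls use the plain ratio. Cells were also thinned to 1000 UMIs. No p-value was computed, because there was 1 library per group. The calculation was tested on simulated data.

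The genes named are all 37 with values, by role: in full over the 6 classes for genes called present in all classes, for bound genes and for the 8 genes with the most UMIs, and for the libraries the 6 lowest and 4 highest log2 ratios of a class. Rtp4, Isg20, Oas1a and the genes of the paragraph on exceptions were picked with their values known. The set and all lists were chosen with earlier results of these data known. Coordinates are of GENCODE M21 (GRCm38). Promoters are from RefSeq (GRCm38.p6). Some results are not reported here.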

Additional observations from a re-analysis of the deposited data

How the results depend on the processing

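Of the 24 alternatives planned and 3 added after seeing the data, none reversed a direction. In the alternatives that recompute such a value (15 per class, 13 for conventional DC-like cells) the medians of the set stayed below 0 and 0 genes were at least 1.5-fold higher. Conventional DC-like cells were not named at resolution 0.5 or with each library clustered on its own, so those settings gave no value there. No paired analysis was possible because each group has 1 library. Depth limits neutrophil-like cells titled Control (259745 UMIs) most. A looser fold limit (the lower of the 2 tried) gave 22 lower genes in monocyte-like, 30 in conventional DC-like and 30 in T cell-like cells. A fold of 2 gave 8 in macrophage-like, 7 in monocyte-like, 6 in conventional DC-like, 12 in neutrophil-like, 9 in T cell-like and 10 in NK cell-like cells. The shares of all measured genes printed above are for 1.5-fold and 10 CPM in the main clustering. The counts at other fold limits, at 50 CPM below and in every other alternative therefore have no background beside them. With a limit of measurement of 50 CPM, which leaves fewer genes, 12 were lower in macrophage-like, 7 in conventional DC-like, 9 in T cell-like and 8 in NK cell-like cells, the T cell-like median was -0.49 and 1 pathway gene was lower in macrophage-like cells. The macrophage-like median was -0.72 with a pseudocount of 1 CPM and -0.43 with 20 CPM, where the T cell-like median was -0.49. The genes called present in all classes numbered 3 at resolution 0.5, 3 with each library clustered on its own and 3 with the stricter cell filter. They numbered 2 with the range limit at 3 times and 14 with it at 8 times. With classes of at least 50 cells 1 was present in all classes, Ifi35. In that setting 3 were bound to a lineage, Ifit3b, Rsad2 and Ddx60. The macrophage-like ratio of the sum was 0.608 at resolution 0.5, 0.603 with all variable genes kept for clustering, 0.621 with doublets kept, 0.628 with the widened class (added), 0.683 without the gene of most UMIs, 0.671 from averaging the CPM of single cells (median -0.55), 0.592 with the stricter filter (median -0.71), 0.710 with clusters at equal weight (median -0.51) and 0.575 with each library clustered on its own (median -0.75). In the last setting 29 genes were lower in monocyte-like cells, with a median of -0.95 and a ratio of the sum of 0.558. The median macrophage-like cell titled Control held 2 UMIs of the set at resolution 2, and without the gene of most UMIs the median was 1 titled Blood and 2 titled Control. The cause of these changes was not tested. Leaving out the barcodes found in both libraries (added) kept 25 lower genes in macrophage-like cells, with a ratio of 0.647. With the mixed monocyte-macrophage cells counted as a class (added) 6 genes were present in all classes and 5 bound to a lineage.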
